A study of Mus musculus with 6 samples.

Results

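Surface and secreted markers of the progenitor cells of fat were compared between high and low gainers in inguinal fat, the subcutaneous depot of the groin. The 10 genes were Pdgfra, Pdgfrb, Pi16, Thy1, Cd24a, Cd34, Dlk1, Dpp4, Ly6a and Pdpn, and their probes were all those whose only gene symbol in the array annotation was one of these names. This gave 8 probes of 33012 on the array, 1 for each of 8 genes. Dpp4 and Ly6a had no probe under their names and were not analysed here. The signal on all 6 arrays was complete for 7 of the 8 probes, and that of Dlk1 was blank on some arrays.

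Male C57BL/6J mice, singly housed, were given a diet high in saturated fat (D12331) from 8 weeks of age for 4 weeks and were then grouped by the weight they had gained. The RNA in 1 pool came from the inguinal fat of 8 high gainers and that in the other from 8 low gainers, so that both shared the strain, the sex and the diet and differed in weight gain. For each pool 3 arrays were run, with 1 color read by chemiluminescence. The 3 arrays are technical repeats of 1 RNA pool, n counts arrays, and every p-value below measures the spread between arrays and not that between mice. Signal is given as a linear intensity, quantile normalized by the authors. Levels of different probes are not compared as amounts of RNA. Where the signals of a gene list are summed, the brightest probes weigh most in the sum.

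Adipocytes are replaced from progenitors that lie in the stroma and along the vessels of the fat pad. These cells are usually sorted by surface proteins, above all the PDGF receptors, CD34, THY1 and LY6A, the antigen known as SCA1. In mouse subcutaneous fat, cells with DPP4 and PI16 lie in the fibrous septa and give rise to committed preadipocytes, while DLK1, also called preadipocyte factor 1, is shed by preadipocytes and holds back their differentiation. None of these markers belongs to progenitors alone. THY1 is abundant on T lymphocytes, CD24 on B lymphocytes and epithelium, CD34 on endothelium, PDGFRB on pericytes and podoplanin on lymphatic endothelium, and the inguinal pad holds a lymph node.

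The progenitor markers did not move in 1 direction. Pi16 was higher in high gainers, by 1.98-fold, and Cd24a and Thy1 were lower, by 2.26-fold and 1.67-fold. Cd34, Pdgfrb, Pdgfra and Pdpn had ratios of high to low gainers of 1.49, 1.81, 1.31 and 1.30 and were not called. A probe was called where limma gave a Benjamini-Hochberg adjusted p under 0.01 over the 15821 probes measured on all 6 arrays and the fold change was at least 1.5. By this rule 1 of the 7 tested markers was called higher, beside 2.50% of all tested probes, and 2 were called lower, beside 3.99%. The arrays of the pools did not overlap for any of the 7, with high gainers above for 5, beside 20.3% of all tested probes, and below for 2, beside 16.3%. Dlk1 had a value on 2 of 3 high-gainer arrays and on none of the low-gainer arrays.

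**Figure D1:**
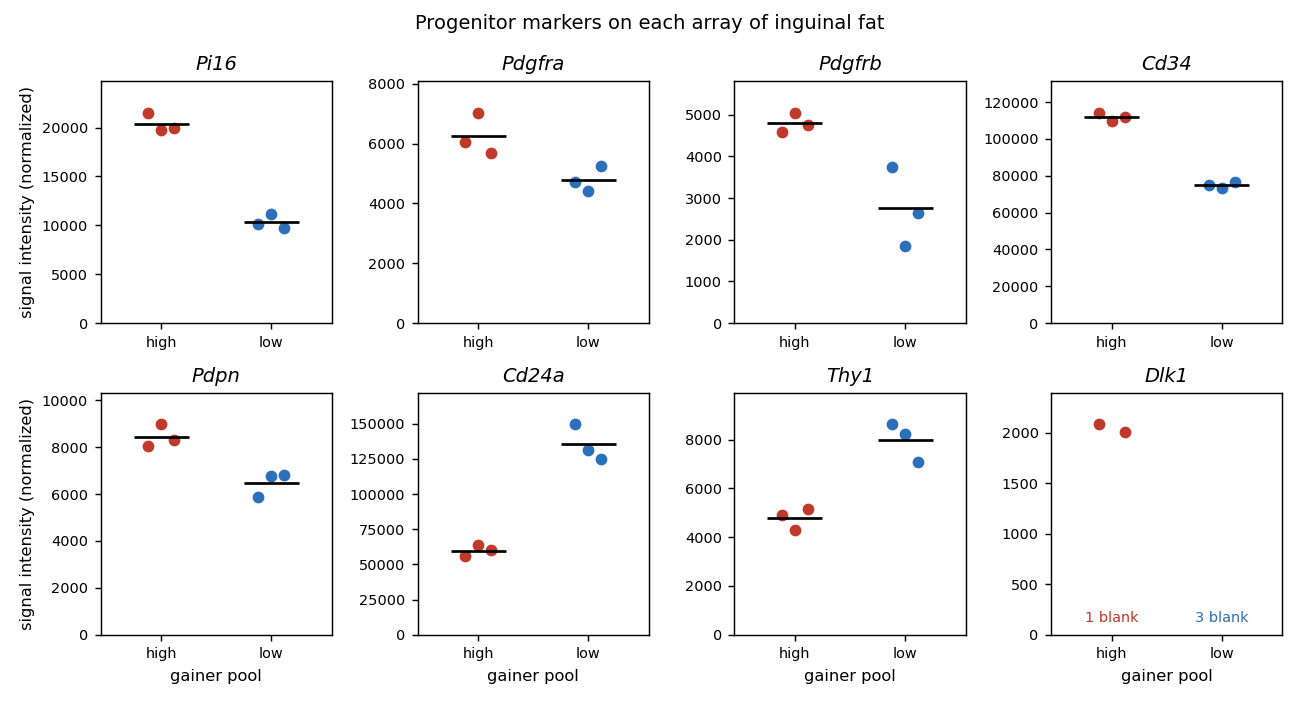
Normalized signal intensity (linear axis from 0, its own scale in each panel) of the 8 probes on each array. High gainers are red and low gainers blue (3 arrays of 1 pool each), with short lines for the means of pools without blank arrays, and Pi16, Pdgfra, Pdgfrb, Cd34 and Pdpn are higher on every high-gainer array, Cd24a and Thy1 are lower on every one, and Dlk1 is blank on 1 high-gainer and 3 low-gainer arrays.

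Pi16, which encodes peptidase inhibitor 16, a secreted or membrane-anchored protein of the CAP family, marks the interstitial progenitors of mouse fat. Its signal was 21539, 19722 and 19998 on the high-gainer arrays, against 10107, 11119 and 9729 on the low-gainer arrays. The groups were far apart relative to the spread within each. The means were 20420 ± 979 in high gainers and 10318 ± 719 in low gainers (SD, n = 3 arrays each), a log2 ratio of 0.99 (standard error 0.10, adjusted p = 0.000779 from limma). Only 0.898% of all tested probes had a higher ratio. Leaving out each array in turn kept Pi16 called 6 times of 6, at log2 ratios of 0.94 to 1.04. Dpp4, the dipeptidyl peptidase that marks the same cells, was not analysed here.

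Other genes of interstitial progenitors were followed beside Pi16. Of 12 such genes, 8 were tested, 2 were called higher, beside 2.50% of all tested probes, and none was called lower, and their median log2 ratio was 0.61 where that of all tested probes was 0.03. Dact2, an inhibitor of TGF-beta and Wnt signaling, was at 6760 ± 459 in high gainers and 2712 ± 390 in low gainers, 2.50-fold higher (SD, n = 3 arrays each, adjusted p = 0.000667 from limma). Its probe was dim, which here means a mean signal in the lowest 33.3% of tested probes. Efhd1, a calcium-binding protein of mitochondria, was 1.58-fold higher (adjusted p = 0.00485). Without any 1 of high gainers replicates 1 and 2 and low gainers replicates 1, 2 and 3 Efhd1 lost its call, with an adjusted p of up to 0.0307, and the count was then 1. For 7 of the 8 genes all high-gainer arrays lay above all low-gainer arrays, beside 20.3% of all tested probes. The exception, named here after its value was seen, was Cd55, a complement inhibitor of the cell surface, with 72521 ± 4079 in high gainers and 99105 ± 3939 in low gainers (SD, n = 3 arrays each, log2 -0.45, adjusted p = 0.0174 from limma). Dact2 and Wnt2 of this list are among the genes that the study selected from these same arrays. The count and the median are thus not independent of that choice. Wnt2 was not called here (log2 0.69, adjusted p = 0.0104 from limma). The study called its change small and did not reproduce changes of some Wnt family members by qRT-PCR of individual mice. Bmp7 and Limch1 were blank on 4 or more arrays, and Sema3c and Fbn1 were not analysed here.

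The PDGF receptors are the tyrosine kinases by which stromal cells respond to platelet-derived growth factors, the alpha form on most adipose progenitors and fibroblasts and the beta form on mural cells as well. Pdgfra was at 6043, 7034 and 5689 on the high-gainer arrays, against 4699, 4409 and 5234 on the low-gainer arrays. The groups did not overlap, but the gap between the lowest high-gainer array and the highest low-gainer array was smaller than the spread within the high-gainer pool. The log2 ratio was 0.39 (standard error 0.12, 95% confidence interval 0.11 to 0.67) and the adjusted p was 0.069 from limma, past neither threshold.

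Pdgfrb was at 4590, 5053 and 4747 on the high-gainer arrays, against 3757, 1858 and 2646 on the low-gainer arrays. The low-gainer arrays spread widely, with an SD of 954 where that of the high-gainer arrays was 235 (n = 3 each). The log2 ratio of 0.86 (standard error 0.23, 95% confidence interval 0.31 to 1.40) was not called, with an adjusted p of 0.0454 from limma, although 1.56% of all tested probes had a higher ratio. It was 1.11 without low gainers replicate 1 (adjusted p = 0.0103) and 0.60 without low gainers replicate 2 (adjusted p = 0.0711). Both receptor probes were dim.

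The genes of the ligands had ratios of the same sign as the receptors. For all 4 PDGF genes the high-gainer arrays lay above those of low gainers without overlap, beside 20.3% of all tested probes, and 1 was called, beside 2.50%. Pdgfd, a ligand of the beta receptor, was at 7463 ± 693 in high gainers and 4333 ± 615 in low gainers, 1.73-fold higher (SD, n = 3 arrays each, adjusted p = 0.00766 from limma, dim probe). Of the fits with 1 array left out it was called in 1, that without low gainers replicate 2, and the adjusted p reached 0.0323 in the others. Pdgfa had a log2 ratio of 0.63 (adjusted p = 0.0195), Pdgfc one of 0.62 (adjusted p = 0.0138) and Pdgfb one of 0.41 (adjusted p = 0.0419, dim probe). Pdgfa is among the genes that the study selected from these arrays. Together with Siglecg, Clec1b and the chemokine Cxcl12 the PDGF genes made 7 ligand and binding partner genes tested. Of these 1 was called higher, beside 2.50% of all tested probes, and 2 lower, beside 3.99%, with a median log2 ratio of 0.41.

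Pericytes and smooth muscle, the mural cells, also carry Pdgfrb. Of 11 mural markers tested limma called 0 higher, beside 2.50% of all tested probes, and 0 lower, beside 3.99%. At an unadjusted p under 0.05 there were 8 higher, a count without a baseline, as the share of all tested probes was not counted. The test of the study's methods (unadjusted p of 0.01 and a fold of 1.5) had 1, Rgs5, higher. That test called 474 of all 15821 tested probes higher. The arrays did not overlap for 8 higher markers, beside 20.3% of all tested probes, and for 1 lower marker, beside 16.3%. A ratio above 1 was found for 9, beside 54.1% of all tested probes, and the median log2 ratio was 0.48. Their summed signal was 450722 to 475989 on the high-gainer arrays and 336804 to 348350 on the low-gainer arrays. Rgs5, a G protein regulator abundant in pericytes, had a log2 ratio of 0.73 (adjusted p = 0.0117 from limma), and Acta2, smooth muscle actin, one of 0.48 (adjusted p = 0.0275). Rgs5 was called without low gainers replicate 2 (adjusted p = 0.00693). The part of mural cells in the ratio of Pdgfrb was not tested. In whole tissue, fewer cells of a type and less RNA per cell cannot be told apart.

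Cd34 and Pdpn encode sialomucins, heavily glycosylated proteins of the cell surface. Cd34, found on adipose progenitors and on endothelium, was at 114337, 109540 and 111894 on the high-gainer arrays, against 74909, 73156 and 76546 on the low-gainer arrays. Relative to their means these were the tightest groups among the markers. The log2 ratio of 0.58 (standard error 0.09, 95% confidence interval 0.38 to 0.78) had an adjusted p of 0.00441 from limma, and the ratio of 1.49 fell just short of the fold threshold of 1.5. Without a fold threshold Cd34 would be called with Pi16, beside 2.82% of all tested probes called higher in that way. With any 1 array left out its adjusted p was between 0.0116 and 0.0304.

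Of 8 blood endothelial markers tested limma called 0 higher, beside 2.50% of all tested probes, and 0 lower, beside 3.99%. At an unadjusted p under 0.05 there were 4 higher, a count without a baseline, as the share of all tested probes was not counted. The test of the methods called 0 higher, beside 474 of all 15821 tested probes. For 5 the high-gainer arrays lay above without overlap, beside 20.3% of all tested probes. A ratio above 1 was found for 8, beside 54.1% of all tested probes, and the median log2 ratio was 0.27. Their summed signal was 491501 to 551596 on the high-gainer arrays and 434275 to 456568 on the low-gainer arrays. Pecam1 was at 84043 ± 9934 in high gainers and 82592 ± 8643 in low gainers (SD, n = 3 arrays each), Cdh5, an endothelial cadherin, had a log2 ratio of 0.44 (adjusted p = 0.116 from limma, dim probe), and Tek, the angiopoietin receptor, had the largest, at 0.55 (adjusted p = 0.0148). The part of endothelial cells in the ratio of Cd34 was not tested.

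Pdpn, podoplanin, is a sialomucin of lymphatic endothelium and of fibroblasts, also those of lymph nodes. It was at 8048, 8977 and 8326 on the high-gainer arrays, against 5877, 6778 and 6817 on the low-gainer arrays. The groups did not overlap. The log2 ratio was 0.38 (standard error 0.10, 95% confidence interval 0.14 to 0.63), with an adjusted p of 0.0457 from limma and a dim probe. Its platelet receptor gene Clec1b went the other way, at 2344 ± 95.4 in high gainers and 3824 ± 210 in low gainers (SD, n = 3 arrays each, 1.63-fold lower, adjusted p = 0.00275, dim probe). Of the 6 fits that drop an array, the Clec1b call was kept in 1, that without low gainers replicate 1, and the adjusted p reached 0.0191 in the others.

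Lymphatic markers were measured thinly. Of 5, Lyve1, a hyaluronan receptor, had a log2 ratio of 0.09 (adjusted p = 0.681 from limma), and Ccl21a, a chemokine of lymphatic vessels and lymph node stroma, was 2.71-fold lower in high gainers (adjusted p = 0.000206). The summed signal of these 2 genes was 305015 to 322520 on the high-gainer arrays and 613987 to 694305 on the low-gainer arrays. Prox1, the transcription factor that defines lymphatic endothelium, was blank on all 6 arrays, Flt4 had a value on 1 array of each pool, and Mmrn1 was not analysed here. The part of lymphatic cells in the ratio of Pdpn was not tested.

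As Pi16 and Cd34 were the markers with an adjusted p under 0.01 among those higher in high gainers, the bases before their first annotated start are printed 5′ to 3′ from RefSeq on GRCm38.p6, with the dinucleotide CG in capitals. The Pi16 sequence is chr17:29318632-29318795 (+) and that of Cd34 is chr1:194938571-194938820 (+).
Pi16: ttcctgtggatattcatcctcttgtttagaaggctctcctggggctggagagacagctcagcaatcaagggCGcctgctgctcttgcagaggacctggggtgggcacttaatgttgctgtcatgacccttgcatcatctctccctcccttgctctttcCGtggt
Cd34: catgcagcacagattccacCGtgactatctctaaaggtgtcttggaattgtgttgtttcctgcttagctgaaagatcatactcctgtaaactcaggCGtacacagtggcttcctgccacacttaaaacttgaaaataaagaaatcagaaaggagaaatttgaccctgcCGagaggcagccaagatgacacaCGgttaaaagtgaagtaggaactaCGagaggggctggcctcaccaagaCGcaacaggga
The Pi16 bases held 2 CG and those of Cd34 held 6. The medians were 3 and 6 over as many bases of 32851 promoters, counted from 250 bases before each start. For Pi16 the 164 bases of the other promoters thus stop short of the start, while the printed bases reach its first annotated start. The Pi16 median and shares are therefore not from a like position. The TATA box letters TATAAA were on neither strand of either sequence, and 7.83% of all promoters held them over the 164 bases taken for Pi16 and 12.4% over the 250 bases taken for Cd34. The letters CCAAT were on neither strand of either, and 22.0% and 33.8% of all promoters held them over these lengths. The GC box letters GGGCGG were on neither strand of either, and 18.6% and 32.7% held them. The arrays measured RNA and do not bear on binding at these sequences.

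Cd24a and Thy1 encode small proteins held to the membrane by a lipid anchor, as LY6A is. Cd24a, the heat stable antigen, marks early adipose progenitors in mouse fat and is also found on B lymphocytes, epithelium and granulocytes. Its signal was 55731, 63606 and 59928 on the high-gainer arrays, against 149718, 131546 and 125142 on the low-gainer arrays. The highest high-gainer array lay well below the lowest low-gainer array. The means were 59755 ± 3940 in high gainers and 135469 ± 12749 in low gainers (SD, n = 3 arrays each), a log2 ratio of -1.18 (standard error 0.11, adjusted p = 0.000589 from limma). A higher ratio was found for 98.0% of all tested probes. Leaving out each array in turn kept Cd24a called 6 times of 6, at log2 ratios of -1.23 to -1.10. Related copies of Cd24a lie elsewhere in the mouse genome, and whether the probe also reads them was not tested.

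B lymphocyte genes were lower in the same pool as Cd24a. Of 6 B lymphocyte markers tested 6 were called lower in high gainers, beside 3.99% of all tested probes, the median log2 ratio was -1.66 and the summed signal was 89670 to 94762 on the high-gainer arrays and 307947 to 323904 on the low-gainer arrays. Cd22, a co-receptor that restrains B cell signaling, was 4.14-fold lower (adjusted p = 0.00131 from limma, dim probe), Ms4a1, the antigen CD20, was 3.79-fold lower (adjusted p = 0.000206) and Cd79a, a chain of the B cell receptor, 2.34-fold lower (adjusted p = 0.00127). Blk was blank on all high-gainer arrays and on 1 low-gainer array. Siglecg, a lectin of B cells that binds CD24, was at 8127 ± 203 in high gainers and 20340 ± 1441 in low gainers (SD, n = 3 arrays each, 2.50-fold lower, adjusted p = 0.00028).

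Of 7 epithelial markers tested 4 were called lower, beside 3.99% of all tested probes, and none higher, the median log2 ratio was -1.53 and the summed signal was 91201 to 130461 on the high-gainer arrays and 145727 to 172330 on the low-gainer arrays. Krt18, a keratin of simple epithelia, was 6.26-fold lower (adjusted p = 0.000309 from limma, dim probe), and Cdh1, E-cadherin, which the study selected from these arrays, was 4.19-fold lower (adjusted p = 0.000222, dim probe). The arrays overlapped for the claudin genes Cldn4 and Cldn3, named here after their values were seen. Cldn4, which made up the largest part of the summed signal, was at 77518 ± 14540 in high gainers and 88620 ± 15540 in low gainers (SD, n = 3 arrays each, log2 -0.19, adjusted p = 0.516 from limma), and Cldn3 had a log2 ratio of 0.19 (adjusted p = 0.563). Epcam and Krt5 had a value on 1 of 3 high-gainer arrays and on 3 of 3 low-gainer arrays, and Krt19 and Cldn7 on none of the high-gainer arrays and on 2 low-gainer arrays. The parts of B lymphocytes and of epithelium in the ratio of Cd24a were not tested.

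Thy1, a small adhesion protein of fibroblasts, mesenchymal progenitors, T lymphocytes and neurons, was at 4899, 4302 and 5136 on the high-gainer arrays, against 8629, 8244 and 7061 on the low-gainer arrays. The groups did not overlap. Means were 4779 ± 430 in high gainers and 7978 ± 817 in low gainers (SD, n = 3 arrays each), a log2 ratio of -0.74 (standard error 0.12, adjusted p = 0.00657 from limma, dim probe). This call was close to the threshold. It was lost with any 1 array left out, where the adjusted p was 0.0298, 0.0255 and 0.0139 without high gainers replicates 1, 2 and 3 and 0.0198, 0.0269 and 0.0113 without low gainers replicates 1, 2 and 3, while the log2 ratio stayed between -0.82 and -0.66.

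T lymphocyte genes were lower in the same pool as Thy1. Of 7 T lymphocyte markers tested 5 were called lower, beside 3.99% of all tested probes, and none higher. The high-gainer arrays lay below those of low gainers without overlap for 7, beside 16.3% of all tested probes, and the median log2 ratio was -1.56. Their summed signal was 114247 to 136973 on the high-gainer arrays and 331373 to 385973 on the low-gainer arrays. Cd3g and Cd3d, chains of the T cell receptor complex, were 3.61-fold and 3.39-fold lower (adjusted p = 0.000621 and 0.000174 from limma), and Cd8b1, a co-receptor chain, was 3.54-fold lower at its brighter probe (adjusted p = 0.000174) and 4.69-fold lower at the other. Cd3e had values of 2326 and 1129 on the high-gainer arrays that held one and of 4112, 6086 and 4675 on the low-gainer arrays. The part of T lymphocytes in the ratio of Thy1 was not tested.

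**Figure D2:**
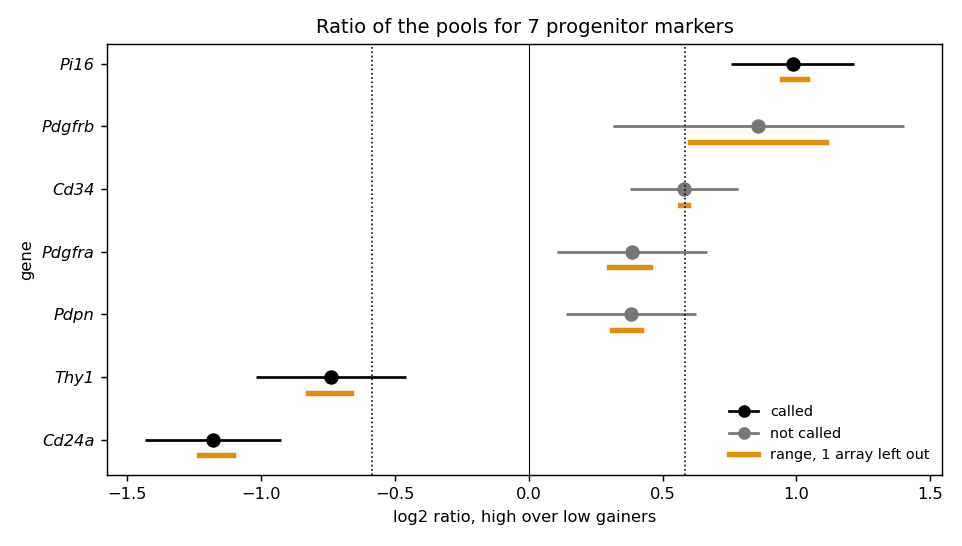
Log2 ratio of high over low gainers for the 7 tested markers (points, with the 95% confidence interval from limma; black, called; gray, not called), with an orange bar for the range over the 6 fits with 1 array left out and dotted lines at the fold threshold of 1.5. Pi16 (0.99), Cd24a (-1.18) and Thy1 (-0.74) were called, and Cd34 (0.58) lies at the threshold.

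Dlk1 encodes the preadipocyte factor, a transmembrane relative of the Notch ligands from an imprinted locus. It was at 2083 and 2009 on high gainers replicates 1 and 3, and was blank on high gainers replicate 2 and on low gainers replicates 1, 2 and 3. No fold was computed and no test was made, because a blank is not a level. The same pattern, with a value on 2 high-gainer arrays and on no low-gainer array, was found for 336 of the 33012 probes, or 1.02%.

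**Figure D3:**
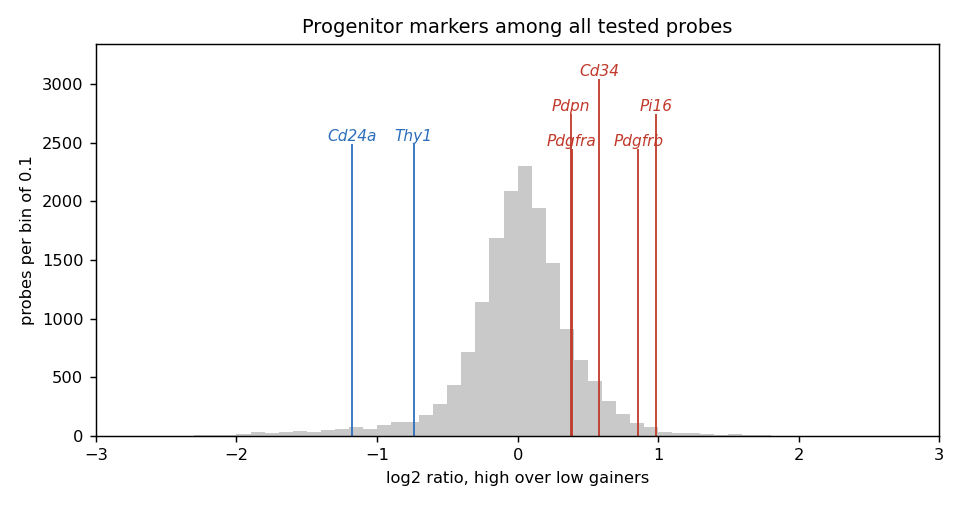
Number of tested probes in each bin of 0.1 of the log2 ratio of high over low gainers (gray bars, both axes linear), with vertical lines for the 7 tested markers, red above 0 and blue below 0. Beyond the axis lies 1 of the 15821 probes, and the 5 markers above 0 lie between 0.38 and 0.99 and the 2 below 0 at -0.74 and -1.18.

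Of 9 committed preadipocyte genes tested, 1 was called higher, beside 2.50% of all tested probes, and 1 lower, beside 3.99%. Their median log2 ratio was 0.27. Of the tested genes Pparg, Fabp4 and Cd36 also stand among the adipocyte markers below, so these lists are not separate. Sparcl1, a matrix-associated glycoprotein, was at 802252 ± 10970 in high gainers and 502872 ± 10860 in low gainers, 1.60-fold higher (SD, n = 3 arrays each, adjusted p = 0.0022 from limma). Icam1, an adhesion molecule of committed preadipocytes that is also induced on endothelium and leukocytes, was at 2151 ± 418 in high gainers and 4626 ± 346 in low gainers, 2.17-fold lower (SD, n = 3 arrays each, adjusted p = 0.00304, dim probe). Neither was called without high gainers replicate 1, low gainers replicate 2 or low gainers replicate 3, without high gainers replicate 2 only Icam1 was and without low gainers replicate 1 only Sparcl1 was, with an adjusted p of up to 0.0174 for both. Pparg, the nuclear receptor at the head of the adipocyte program, was not called, at a log2 ratio of 0.36 (adjusted p = 0.0745).

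Of 6 genes of the CD142-positive stromal cells tested limma called 0 higher, beside 2.50% of all tested probes, and 0 lower, beside 3.99%. At an unadjusted p under 0.05 there were 3 higher, a count without a baseline, as the share of all tested probes was not counted. The test of the methods called 0 higher, beside 474 of all 15821 tested probes. For 5 the high-gainer arrays lay above without overlap, beside 20.3% of all tested probes. The median log2 ratio was 0.37. F3, the gene of CD142 or tissue factor, had the largest, at 0.60 (adjusted p = 0.0298 from limma). Of 20 general fibroblast and mesenchymal genes tested 2 were called higher, beside 2.50% of all tested probes, and none lower, beside 3.99%. The median was 0.27, and 15 had a ratio above 1, beside 54.1% of all tested probes. The arrays did not overlap for 11 higher genes, beside 20.3%, and for 2 lower ones, beside 16.3%. These 2, named after their values were seen, were Cd44 (log2 -0.50, adjusted p = 0.0263 from limma) and Vcam1 (log2 -0.47, adjusted p = 0.0601, dim probe). Both called genes are transcription factors of mesenchyme. Prrx1 was 1.61-fold higher (adjusted p = 0.00585) and Osr1 1.58-fold higher (adjusted p = 0.00396), and both calls were lost in each of the 6 fits with 1 array left out, where the adjusted p reached 0.0335 and 0.0215. Tcf21 was blank on all 6 arrays and Cd248 was not analysed here.

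Markers of the other cells of the pad serve to check the tissue. Of 10 adipocyte markers tested 1, Lep, the leptin gene, was called higher (log2 0.83, adjusted p = 0.0035 from limma), beside 2.50% of all tested probes. None was called lower, beside 3.99%, and the median log2 ratio was 0.18. The Lep call was lost when replicate 1 or 2 of high gainers, or replicate 1 or 3 of low gainers, was dropped, where the adjusted p reached 0.0175. The summed signal of these genes was 6012394 to 6160601 on the high-gainer arrays and 5139073 to 5608516 on the low-gainer arrays, and Adipoq was not analysed here. Of 4 macrophage markers limma called 0 higher, beside 2.50% of all tested probes, and 0 lower, beside 3.99%. The test of the methods called 0 higher, beside 474 of all 15821 tested probes. At an unadjusted p under 0.05, where the share of all tested probes was not counted, 1 was higher. That gene was Cd163, a scavenger receptor, with a log2 ratio of 0.44 (adjusted p = 0.0151 from limma). The median log2 ratio of the macrophage markers was 0.07. The arrays did not overlap for 1 higher marker, beside 20.3% of all tested probes, and for 1 lower marker, beside 16.3%. Their summed signal was 1337761 to 1447716 on the high-gainer arrays and 1421442 to 1613999 on the low-gainer arrays. Of 7 skeletal muscle markers 7 were called lower in high gainers, beside 3.99% of all tested probes. Tnnt3, a troponin, was lower by 2.24-fold and Acta1, skeletal actin, by 1.91-fold. The muscle count was 2, 2 and 4 without high gainers replicates 1, 2 and 3 and 5, 4 and 2 without low gainers replicates 1, 2 and 3.

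**Figure D4:**
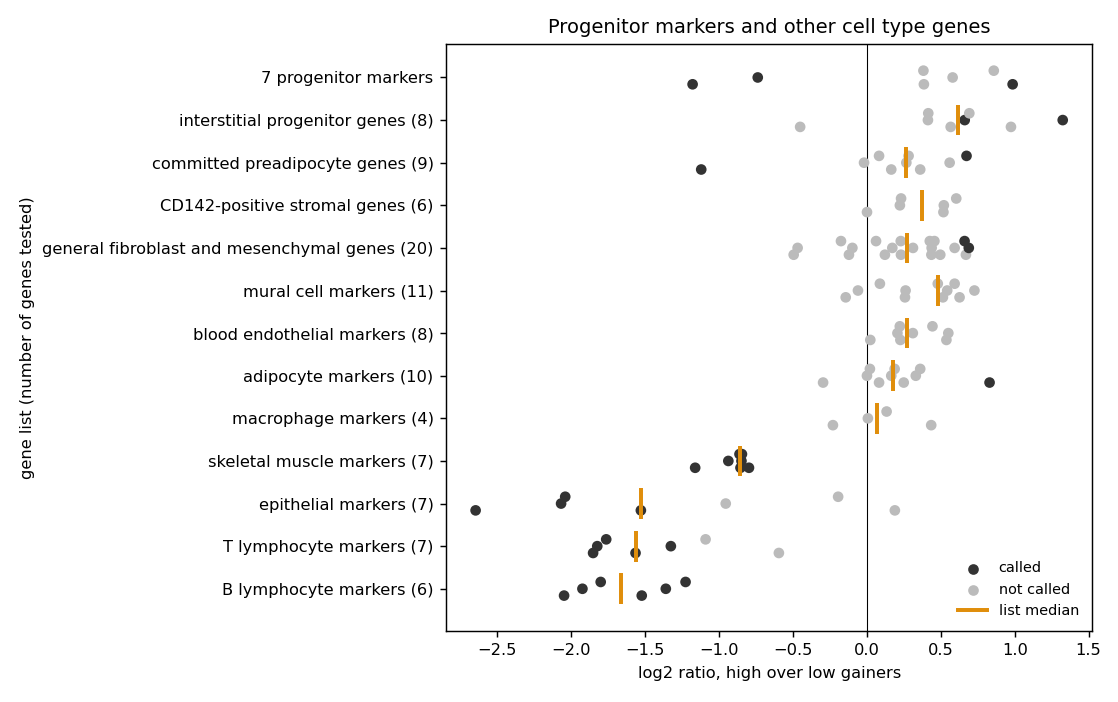
Log2 ratio of high over low gainers for the 7 tested markers (top row) and for the tested genes of 12 lists (points; black, called; light gray, not called), with an orange line for the median of each list. The lists of stromal, mural and blood endothelial genes have medians between 0.27 and 0.61, and those of muscle, epithelium, T and B lymphocytes have medians between -1.66 and -0.85. Not drawn are the lists of lymphatic endothelial markers (median -0.67, 2 genes tested) and of ligands and binding partners (median 0.41, 7 genes tested).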

How the data were processed

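RNA pooled from the inguinal fat of 8 high gainers and of 8 low gainers was labeled with digoxigenin and each pool hybridized to 3 Applied Biosystems Mouse Genome Survey arrays. The deposited signal intensities had been quantile normalized by the authors and are on a linear scale, with blanks where an array gave no value. Groups came from the sample titles. Of 33012 probes, 14411 carried 1 gene symbol, 247 several and 18354 none, and 18018 to 20605 had a value on an array. Values of the 15821 probes measured on all 6 arrays were taken to log2 and tested with limma 3.58.1 in R 4.3.3 on high over low gainers, with Benjamini-Hochberg adjustment over all of them. The steps were first tested on simulated data. A probe was dim if its mean lay in the lowest 33.3% of tested probes. For genes with several probes in a list the brightest tested probe was used.

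Array numbers were not taken to pair the samples. Same-numbered arrays of the pools had correlations of deviations of 0.04, -0.11 and 0.27. Differently numbered arrays were not compared, so these values cannot show whether some arrays shared a run. The markers and gene lists were chosen with earlier results of these data known. Every marker was named, and of each list the 2 most changed called genes in each direction or otherwise the most changed gene, with defining cell type markers and the PDGF ligands. Alternatives changed the normalization, centering, offset, probe filters, variance model, test, fold threshold, block and arrays used. Figures were drawn with matplotlib 3.10.9 and tables joined with pandas 2.3.3.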

Additional observations from a re-analysis of the deposited data

How the results depend on the processing

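Every marker kept its direction in each alternative run, but for most runs this was fixed in advance. Where the arrays of the pools do not overlap, leaving 1 out cannot reverse a ratio. Changes of test, variance model, threshold or block reuse the same ratio. Of 115 marker values, 101 kept their side of the threshold, 13 lost a call, 1 gained one and 0 changed sign. The count of markers called higher, 1 as reported, was 2 with no fold threshold, since Cd34 joined Pi16, and 0 with a 2-fold threshold or with the ANOVA of the methods after Benjamini-Hochberg adjustment (Pi16 adjusted p = 0.0104). It was 1 to 1 with 1 array left out. The count called lower, 2 as reported, was 1 without dim probes, which leaves out Thy1, 1 with probes valued on at least 2 arrays of each pool (Thy1 adjusted p = 0.01, just over the threshold), 1 with a 2-fold threshold, 0 with that adjusted ANOVA (Cd24a adjusted p = 0.0117) and 1 to 1 with 1 array left out. With the array number as a replicate block, which is no pairing by the labels, the count called lower was 1 (Thy1 adjusted p = 0.0224), Pi16 and Cd24a had an adjusted p of 0.00548 and 0.00431, and the counts over all probes were 173 higher and 446 lower.

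Over all probes 396 were called higher and 632 lower. These were 46 and 111 with the adjusted ANOVA, 98 and 402 at 2-fold, and 105 to 319 and 368 to 493 with 1 array left out. With 1 pool of 8 mice per group, the number of arrays limits precision to that of the hybridization, and the spread between mice was not measured. Dim probes (Pdgfra, Pdgfrb, Pdpn and Thy1) lie nearest to background.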
